A study of Rattus norvegicus with 4 samples.

Results

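A set of 10 genes of the acute phase and of innate defence was followed on 4 expression arrays of rat mammary gland. The 10 members are Lbp, Cp, C3, Lcn2, S100a8, S100a9, Ltf, Hp, Cd14 and Lyz2, and they were found by current symbol, older synonym or gene identifier in the annotation of the array. Of these, 8 had a feature on the array, with 9 of the 20500 features in all, and the table names 9653 genes. No feature carried the name of Ltf or Hp, so lactoferrin and haptoglobin were not analysed here. Values on all 4 arrays were given for 6 members (Cp, C3, Lcn2, S100a8, S100a9 and Cd14). Lbp had a value on the 2 arrays of virgin rats, and both features of Lyz2 were blank throughout.

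The animals were Lewis rats, and each of the 4 groups stands for 5 animals and 1 array. Rats of the parous+MNU group gave birth when 87 days old and lost their litters at 108 days, after 21 days of nursing. They received 1 intraperitoneal dose of 50 mg/kg N-methyl-N-nitrosourea (MNU, an alkylating mammary carcinogen) at 136 days, and were killed 3 weeks later at 157 days. The AMV+MNU group consisted of age-matched virgins (AMV) given the same dose and killed at the same age. The parous group had the same reproductive history, went through 28 days of involution after litter removal and was killed at 136 days without MNU. The AMV group consisted of virgins killed at 136 days without MNU. MNU and the 3 further weeks of age cannot be told apart, and in parous rats those weeks were also further time since the litters were removed. The sources used here do not say if RNA from those 5 animals went onto an array as a pool.

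The acute phase response is the change in plasma and tissue proteins that follows infection, injury or tissue remodelling. Cytokines of the interleukin-6 and interleukin-1 families act through STAT3, C/EBP and NF-kB transcription factors on its target genes. The best studied site of this response is the liver, but mammary epithelium and the leukocytes of the gland also make several of these proteins, and in rodents a set of acute phase genes is known to be switched on in the gland at weaning. The members fall into molecules that sense bacterial lipopolysaccharide (Lbp, Cd14), secreted acute phase and complement proteins (C3, Cp, Hp), proteins that withhold iron from microbes (Lcn2, Ltf) and proteins stored in neutrophils or macrophages (S100a8, S100a9, Lyz2).

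Array medians were 179 intensity units for parous+MNU, 221 for AMV+MNU, 226 for parous and 238 for AMV, so the values were quantile normalized before comparison. Values below a floor of 176.9 units were raised to it, and features that exceeded 214.9 units on 1 array or more were retained. There remained 6187 genes, 5587 of them without any blank. A difference between 2 arrays stands without replication, and precision is limited by how few arrays there are. In whole gland, fewer cells of a type and less RNA per cell cannot be told apart. Markers of luminal epithelium were present, with 7 of the 8 on the array past the intensity filter. Of 7 liver markers on the array only Apoa1 and Fgb passed it, while Apoh, Ttr, Serpinc1, Tat and Cps1 stayed under it.

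Every member that could be compared was higher in the parous than in the virgin gland, by 0.14 to 0.77 on the log2 scale after normalization, while as deposited Cp, Lcn2 and Cd14 were lower in parous+MNU than in AMV+MNU glands. C3 and Cd14 differed most without MNU and S100a9 differed most after MNU. C3 passed the intensity filter only through the parous arrays, so at least 1 of its parous values had to exceed both virgin values. None reached a 2-fold difference in any comparison, and none passed the adjusted threshold when both pairs were tested together. The rest of the description takes the members by role, with the normalized intensity on each array.

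C3, the central component of complement, which is cleaved to tag microbes for uptake, read 281 units in parous+MNU, 213 in AMV+MNU, 299 in parous and 196 in AMV glands. Both parous arrays lay above both virgin arrays. The log2 difference between parous and virgin glands was 0.61 without MNU and 0.40 after MNU. C3 passed the intensity filter only through the parous arrays, since both virgin arrays read below 214.9 units. At least 1 parous value of a kept C3 feature therefore had to exceed both virgin values.

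Cp encodes ceruloplasmin, the copper-carrying ferroxidase of plasma, which rises in the acute phase. It read 414 units in parous+MNU, 344 in AMV+MNU, 503 in parous and 390 in AMV glands. Here too both parous arrays lay above both virgin arrays, with log2 differences of 0.37 without MNU and 0.27 after MNU. As deposited, the order in the MNU pair was the other way, with 336 units in parous+MNU and 356 units in AMV+MNU.

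Lcn2 encodes lipocalin-2, which binds bacterial siderophores and so keeps iron from bacteria. It read 2831 units in parous+MNU, 2149 in AMV+MNU, 3209 in parous and 2629 in AMV glands. Parous arrays were again the highest of the 4, with a log2 difference between parous and virgin glands of 0.29 without MNU and of 0.40 after MNU. The deposited values in the MNU pair were 2180 units for parous+MNU and 2270 units for AMV+MNU, which is a lower value in parous+MNU.

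Cd14 encodes the coreceptor that passes lipopolysaccharide to Toll-like receptor 4, and is known from monocytes, macrophages and mammary epithelium. It read 2380 units in parous+MNU, 2001 in AMV+MNU, 2959 in parous and 1836 in AMV glands. The untreated parous array was the highest, and the other 3 lay closer together. The log2 difference between parous and virgin glands was 0.69 without MNU and 0.25 after MNU. As deposited, Cd14 read 1840 units in parous+MNU and 2110 units in AMV+MNU, so that pair also changed order with the scaling.

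S100a9 and S100a8 encode the subunits of calprotectin, a zinc- and manganese-binding protein of neutrophils that is also induced in epithelia. They are neighbours in the rat genome. S100a9 read 421 units in parous+MNU, 247 in AMV+MNU, 371 in parous and 336 in AMV glands. The AMV+MNU array stood lowest, which gave a log2 difference between parous and virgin glands of 0.77 with MNU and 0.14 without MNU. As deposited the S100a9 difference was 0.41 in the MNU pair, in the same direction. S100a8 read 103 units in parous+MNU, 90.3 in AMV+MNU, 94.2 in parous and 89.3 in AMV glands. All 4 values lay under the floor, where values have no order, and S100a8 entered no comparison while the filter was in place.

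**Figure D1:**
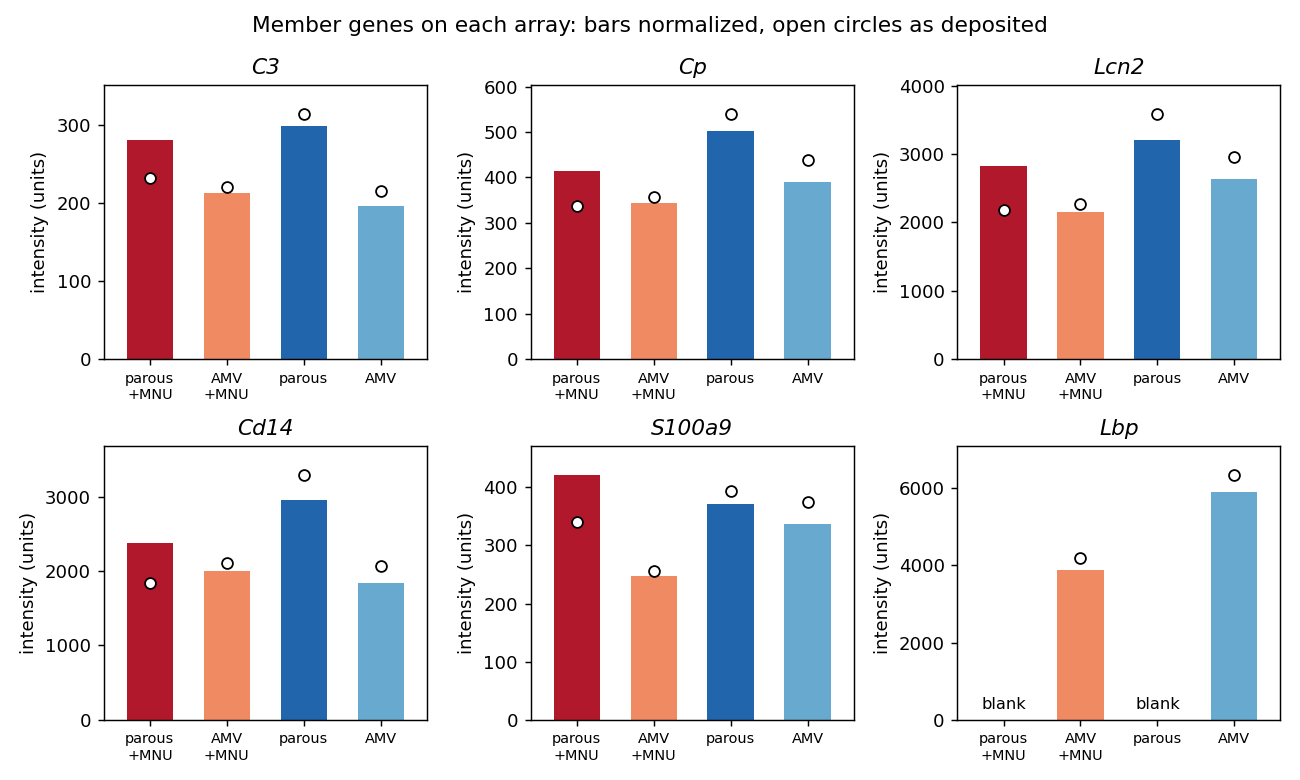
Intensity of the 6 members with values past the filter, on the arrays of parous+MNU, AMV+MNU, parous and AMV glands (1 array each). Bars are normalized units and open circles the deposited units; in each panel except that of Lbp, which is blank on both parous arrays, both parous bars are above both virgin bars, but the parous+MNU circles of Cp, Lcn2 and Cd14 are below the AMV+MNU circles.

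Lbp encodes lipopolysaccharide-binding protein, a secreted acute phase protein that carries lipopolysaccharide to Cd14. Its single feature was blank in parous+MNU and in parous glands, and read 3871 units in AMV+MNU and 5895 units in AMV glands after normalization (4180 and 6340 units as deposited). No parous value exists, so no parity difference can be given for Lbp in either direction. What a blank stands for is not stated in the labels, so it was not read as a low value.

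Lbp shared its pattern of blanks with few features. Of the 20500 features, 13 were blank on both parous arrays and had a value on both virgin arrays, and 10 showed the opposite pattern. Among the 13 were Csn2, the gene of beta-casein, and Glycam1, a mucin-like milk protein gene, and the others with a name were Srp54a, Ube2v2, Txnl1, Dazap2, Epb41 and Atp6v0b. Blanks were more common in bright features. Of 358 features with a highest deposited value above 4000 units, where Lbp belongs, 53.6% had at least 1 blank, against 5.61% of the other features with a value. In that bright class 130 features were blank on the parous+MNU array, 117 on AMV+MNU, 37 on parous and 29 on AMV. Of these, 3 (Lbp, Dazap2 and Atp6v0b) were blank on both parous arrays alone, and 2 (Pck1 and H3f3b) on both virgin arrays alone. The part of brightness in the blanks of Lbp was not tested.

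Lyz2 encodes lysozyme M, the enzyme of macrophages and neutrophils that cuts bacterial cell walls. Both of its features were blank on all 4 arrays, as were 138 features in total. Of the 107 of these with a gene symbol, 28 were genes of ribosomal proteins. Lyz2 therefore has no level here, and a difference between groups could not be looked for.

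**Figure D2:**
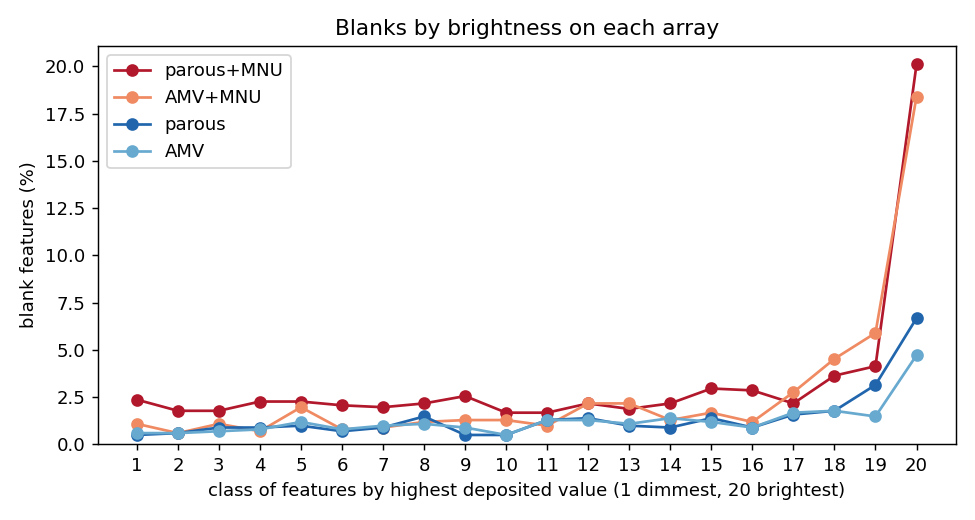
Percent of features that were blank on each array, in 20 classes of equal size ordered by the highest deposited value of the feature (class 1 dimmest, class 20 brightest). The share rises in the last classes and is highest for the MNU arrays, at 20.1% for parous+MNU and 18.4% for AMV+MNU in class 20, against 6.67% for parous and 4.71% for AMV.

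The comparison of parous with virgin glands without MNU asks what a completed pregnancy, lactation and involution left in the gland at 136 days. All 5 members that could be compared were higher in the parous gland, with a median log2 difference of 0.37. The median of all 5994 genes was -0.01, and 47.0% of genes were above 0. C3 passed the filter only through the parous arrays, and without C3 the members' median was 0.33. None of the 5 was at least 2-fold different, against 0.450% of all genes. C3 and Cd14 exceeded 1.5-fold, at 1.52-fold and 1.61-fold, a size that 1.20% of all genes reached in that direction. Across all genes the robust SD of the difference was 0.155 on the log2 scale, and 4 of the 5 members lay above that distance from 0, S100a9 being the exception at 0.14.

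The same comparison after MNU asks how the 2 kinds of gland compared once 3 weeks had passed since the carcinogen. Again all 5 members were higher in the parous gland after normalization, with a median log2 difference of 0.40 and a range of 0.25 to 0.77. Without C3, which passed the filter only through the parous arrays, the median was 0.33. The median of all 5686 genes was -0.01, and 47.1% of them were above 0. None of the 5 was at least 2-fold different, against 0.422% of all genes. S100a9, at 1.70-fold, was the only member past 1.5-fold, a size that 0.879% of all genes reached in that direction. As deposited, the median of all genes in this pair was -0.36, alongside the dimmer parous+MNU array. The 5 members had a median of -0.06 on that scale, with Cp at -0.08, Lcn2 at -0.06 and Cd14 at -0.20 below 0, and each of the 5 above the median of all genes.

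**Figure D3:**
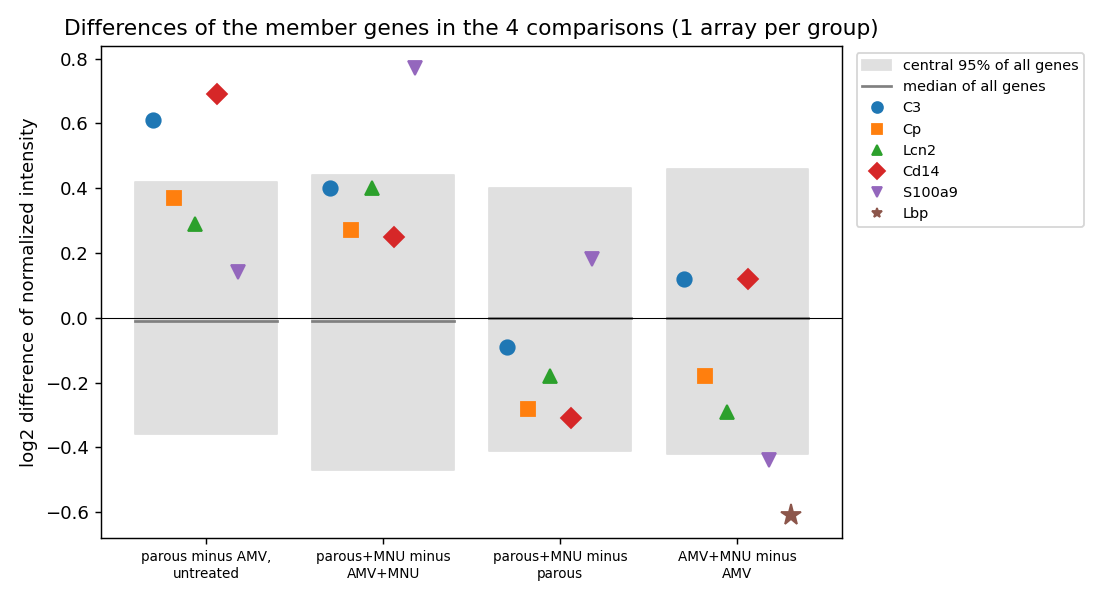
Log2 difference of normalized intensity for each member in the 4 comparisons, with 1 array per group. Grey boxes span the central 95% of all genes and grey lines their median. In both parity comparisons all 5 members are above 0, where C3 passed the filter only through the parous arrays. As deposited, Cp, Lcn2 and Cd14 are below 0 after MNU. With MNU and age most members are below 0.

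Both parity pairs share no array and were combined in an additive limma model of parity and MNU fitted to 5587 genes. The members were chosen with earlier results of these data known. Shares of all genes set beside theirs are therefore background and give no independent support. After normalization, for 5 of 5 members both parous arrays lay above both AMV arrays, which held for 14.7% of all genes. As a weaker condition, 25.0% of all genes were higher in the parous gland of each pair. C3 passed the filter only through the parous arrays, and without C3 the count was 4 of 4. C3 had a mean difference of 0.50 ± 0.11 on the log2 scale (SE over 2 parous and 2 AMV arrays, limma adjusted p = 0.0585), Cd14 of 0.47 ± 0.13 (adjusted p = 0.119) and S100a9 of 0.46 ± 0.14 (adjusted p = 0.204). Lcn2 had a mean of 0.34 ± 0.11 (limma adjusted p = 0.229) and Cp of 0.32 ± 0.11 (limma adjusted p = 0.270). So 0 of 5 members passed the adjusted threshold of 0.05, where 0.752% of genes passed as higher and 0.483% as lower. At an unadjusted p under 0.05 limma counted 5 of 5 members as higher, against 4.96% of all genes in that direction, and without C3 the count was 4 of 4. The members' median was 0.46, or 0.40 without C3, and that of all genes -0.01. The size of the SE reflects the prior that limma shares across genes, as only 1 residual degree of freedom remains for a gene. That residual is the change of the parity difference with MNU, so the SE measures no spread between replicate arrays or animals. With the strict filter, which keeps a feature only if every measured array exceeds 214.9 units, Cd14 (limma adjusted p = 0.0243) and S100a9 (adjusted p = 0.0436) passed as higher, as did 1.48% of the 4850 genes tested there, and C3 dropped out. Over the alternatives the limma adjusted p ranged from 0.0323 to 0.639 for C3, which passed the main filter only through the parous arrays. The limma adjusted p ranged from 0.0243 to 0.860 for Cd14 and from 0.0436 to 0.957 for S100a9.

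The promoters of Cp, C3 and Lcn2 are shown. These secreted members were picked because after normalization they were higher in the parous gland of both pairs and each holds a C/EBP motif match. C/EBP is one of the factors named above. As deposited, Cp and Lcn2 were lower in parous+MNU than in AMV+MNU glands. S100a9 and Cd14 were also higher after normalization but hold no C/EBP match. A link between motif and level was not tested. Sequences are from RefSeq on GRCr8, 250 bases before to 50 bases after the gene's start, and capitals mark every motif match found. The search covered both strands for TTGCNNAA (C/EBP), TTCCNGGAA (STAT3), GGGA and CC with any 4 bases between them (NF-kB) and TATAAA (the TATA box).
Cp promoter, GRCr8 chr2:104368420-104368719, plus strand: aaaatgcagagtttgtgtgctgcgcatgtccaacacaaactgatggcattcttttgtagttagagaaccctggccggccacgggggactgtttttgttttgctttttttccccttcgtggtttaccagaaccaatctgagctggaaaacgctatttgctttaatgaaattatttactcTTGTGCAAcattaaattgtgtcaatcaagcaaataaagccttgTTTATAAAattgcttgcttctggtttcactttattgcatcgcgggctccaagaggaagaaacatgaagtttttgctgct
C3 promoter, GRCr8 chr9:2201290-2201589, minus strand: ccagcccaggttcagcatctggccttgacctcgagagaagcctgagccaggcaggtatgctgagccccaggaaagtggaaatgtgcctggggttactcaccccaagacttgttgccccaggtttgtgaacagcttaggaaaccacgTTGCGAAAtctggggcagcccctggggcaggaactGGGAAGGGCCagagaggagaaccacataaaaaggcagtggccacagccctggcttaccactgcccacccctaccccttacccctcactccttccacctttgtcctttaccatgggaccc
Lcn2 promoter, GRCr8 chr3:36081731-36082030, minus strand: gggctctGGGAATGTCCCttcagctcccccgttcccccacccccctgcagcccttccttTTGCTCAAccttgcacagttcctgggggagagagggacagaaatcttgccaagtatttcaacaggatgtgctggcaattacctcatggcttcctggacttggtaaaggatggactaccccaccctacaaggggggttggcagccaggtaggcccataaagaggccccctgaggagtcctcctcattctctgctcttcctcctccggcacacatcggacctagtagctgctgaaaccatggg

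Among the 7 members with a promoter in the RefSeq table (Cp, C3, Lcn2, S100a9, Ltf, Cd14 and Lyz2), 4 held the C/EBP motif, namely Cp, C3, Lcn2 and Lyz2, and 10.6% of all 33469 promoters did. The C3 match TTGCGAAA began at position -104 from the start, and the Lcn2 match TTGCTCAA at position -191. The NF-kB motif was found in C3, Lcn2 and Cd14, and in 19.3% of all promoters. In Lcn2 the matches on the 2 strands overlap, so they form 1 stretch. The TATA motif was found in Cp and S100a9 and in 14.2% of all promoters, and in Cp its matches on the 2 strands overlap as well. The STAT3 motif was found in 0 of 7 and in 1.27% of all promoters. A match describes the letters in this window and shows no binding.

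MNU with age was compared with the untreated state in parous and in virgin glands. In parous glands 4 of 5 members were lower after MNU, with a median log2 difference of -0.18 where the median of all 5792 genes was 0.00. Cd14 stood at -0.31, Cp at -0.28, Lcn2 at -0.18, C3 at -0.09 and S100a9 at 0.18. None was at least 2-fold different, against 0.0863% of all genes. Only Cd14 and Cp lay beyond the robust SD of all genes, 0.194. As deposited the median of all genes was -0.40 here and the members' median -0.68, with all 5 below 0. With quantile normalization over all values Lcn2 stood at 0.02 in place of -0.18.

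In virgin glands 6 members could be compared, Lbp among them. Lbp was lower after MNU, at 3871 units in AMV+MNU and 5895 units in AMV glands, a log2 difference of -0.61. With quantile normalization over all values this difference was -0.26, and as deposited it was -0.60. S100a9 stood at -0.44, Lcn2 at -0.29, Cp at -0.18, C3 at 0.12 and Cd14 at 0.12, giving a median of -0.24 where that of all 5821 genes was 0.00. None of the 6 was at least 2-fold different, against 0.395% of all genes. Lbp was 1.52-fold lower, a size that 0.928% of all genes reached in that direction. In limma over both MNU pairs 0 of 5 members passed, with adjusted p from 0.399 to 0.970, where 0.430% of all genes passed. At an unadjusted p under 0.05 limma counted 0 of 5 members and 12.8% of all genes.

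The 4 arrays could be ordered for each member, with 1 array per group and so no spread to separate neighbours. After normalization, Cp and Lcn2 ran from parous to parous+MNU, AMV and AMV+MNU. C3 and Cd14 ran from parous to parous+MNU, AMV+MNU and AMV. S100a9 ran from parous+MNU to parous, AMV and AMV+MNU. As deposited, parous+MNU was instead the lowest of the 4 arrays for Cp (336 units), Lcn2 (2180 units) and Cd14 (1840 units). For S100a9 it lay below AMV as deposited (341 against 375 units), while C3 kept its order. Of the 5, S100a9 had the widest range over the arrays at 0.77, followed by Cd14 at 0.69, C3 at 0.61, Lcn2 at 0.58 and Cp at 0.55 on the log2 scale.

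Genes with a pattern most like that of S100a9 and Cd14, the 2 members of widest range, were sought by the Euclidean distance between log2 profiles centred for each gene over the 4 arrays. The 5 nearest to S100a9 were Tspan18 at a distance of 0.06, Atcay at 0.09, Slc39a4 at 0.15, Tef at 0.16 and Rab3gap1 at 0.17. The 5 nearest to Cd14 were Shroom2 at 0.06, Krt13 at 0.10, Dpyd at 0.12, and Vwa1 and Iapp at 0.13 each. With 4 points to a profile, many genes can lie close.

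In the complement list 17 of 23 genes were on the array and 11 passed the filter. Their median log2 difference between parous and virgin glands was -0.13 without MNU and -0.08 after MNU. Cfi, which encodes factor I, the protease that inactivates C3b, rose with parity. It read 882 units in parous+MNU, 540 in AMV+MNU, 892 in parous and 656 in AMV glands, a mean difference of 0.58 ± 0.12 (limma adjusted p = 0.0290). It was the single one of 9 tested complement genes to pass in limma. As deposited the mean was 0.35 (limma adjusted p = 0.484), and Cfi did not pass without a filter (limma adjusted p = 0.654), with the mean of features (adjusted p = 0.172) or with background subtracted (adjusted p = 0.0655).

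Among antimicrobial and granule proteins 9 of 19 genes were on the array, 6 passed the filter and 3 could be tested. Slpi, which encodes an inhibitor of neutrophil elastase that is secreted by epithelia, fell with parity. It read 1864 units in parous+MNU, 2758 in AMV+MNU, 1817 in parous and 3162 in AMV glands, with both parous arrays below both virgin arrays. The mean difference was -0.68 ± 0.11 (limma adjusted p = 0.00923). Slpi kept this direction as deposited, with a mean of -0.93 (limma adjusted p = 0.00176), but did not pass without a filter (adjusted p = 0.599) or with the mean of features (limma adjusted p = 0.0823).

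Of the lipopolysaccharide receptors and Toll-like receptor signalling genes 11 of 24 were on the array, and Tlr4 was not among them. Of those on the array 6 passed the filter and 0 passed in limma for parity. Their median log2 difference was 0.17 without MNU and 0.09 after MNU. Tlr2, a receptor for bacterial lipoproteins that works with Cd14, read 1013 units in parous+MNU, 845 in AMV+MNU, 1342 in parous and 1036 in AMV glands, a mean of 0.32 ± 0.11 (limma adjusted p = 0.273). Irak2, a kinase of this pathway, had a mean of 0.20 ± 0.11 (limma adjusted p = 0.627). Of the cytokine, receptor, STAT3 and C/EBP genes 17 of 21 were on the array and 10 passed the filter. In limma 0 of these passed, and their median was -0.05 without MNU and 0.09 after MNU. Il1r2, the decoy receptor for interleukin-1, had a mean of 0.26 ± 0.11 (limma adjusted p = 0.446) and Jak1, a kinase upstream of STAT3, of -0.21 ± 0.11 (limma adjusted p = 0.581). Jak1 passed the filter only through the virgin arrays, with 206 units in parous+MNU, 237 in AMV+MNU, 205 in parous and 239 in AMV glands. At least 1 of its virgin values therefore had to exceed both parous values. As deposited, Tlr2, Irak2 and Il1r2 were lower in parous+MNU than in AMV+MNU glands. Tlr2 read 796 against 891 units, Irak2 350 against 379 and Il1r2 283 against 288. Il6, Lif, Tnf and Il1a had values only under the filter.

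Among other acute phase plasma proteins 16 of 22 genes were on the array and 5 passed the filter, 10 lay under it, among them A2m, Fga, Fgg, Crp and Hpx, and Tf was blank throughout. The median was -0.07 without MNU and 0.04 after MNU, and 0 of 4 tested genes passed for parity. Serpina1, the gene of alpha-1-antitrypsin, had a mean of -0.12 ± 0.11 (limma adjusted p = 0.818) and Fgb, the beta chain of fibrinogen, of -0.06 ± 0.12 (limma adjusted p = 0.937). Fgb passed the filter only through the AMV array (230 units), so its difference of -0.26 without MNU had to be below 0. A second Fgb feature lay under the filter. Serpina3n, a serine protease inhibitor gene, stood at 0.25 without MNU and -0.33 after MNU, and is named here after its values were seen.

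**Figure D4:**
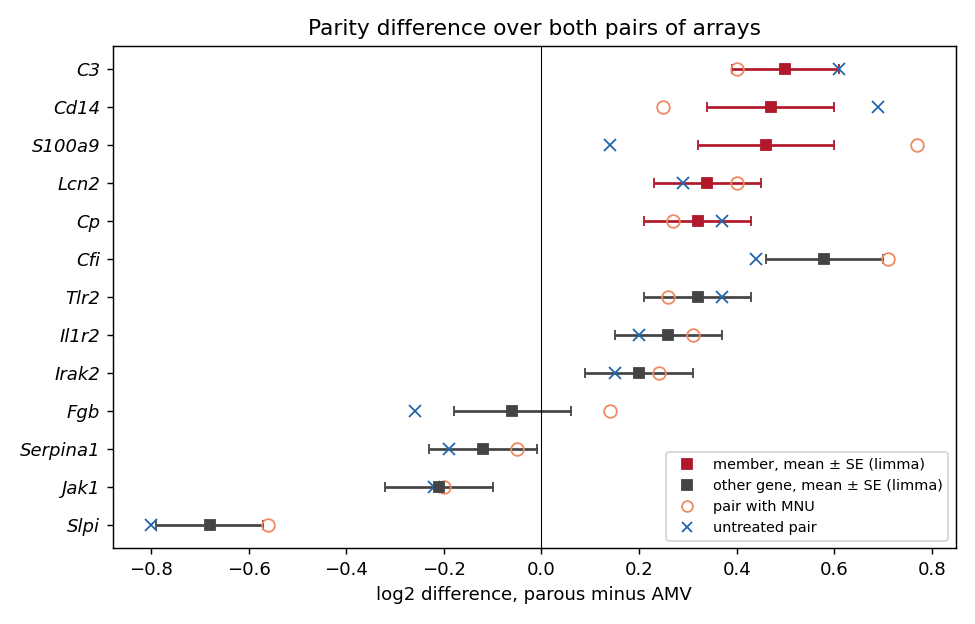
Log2 difference between parous and virgin glands for the 5 tested members (red squares) and 8 genes of the surrounding lists (dark squares), as limma mean ± SE over both pairs, with the MNU pair as circles and the untreated pair as crosses. Members lie between 0.32 and 0.50, Cfi at 0.58 and Slpi at -0.68. C3 passed the filter only through the parous arrays, Jak1 only through the virgin arrays and Fgb only through the AMV array.

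Markers of cells that could carry these transcripts were read beside the members. Of 10 neutrophil markers 4 were on the array. Mmp8 and Ceacam1 lay under the filter, and Cxcr2 and Mmp9 passed it, with a summed level of 795.3 units in parous+MNU, 704.2 in AMV+MNU, 686.1 in parous and 758.7 in AMV glands. Their mean parity differences were 0.09 ± 0.12 for Cxcr2 (limma adjusted p = 0.872) and -0.06 ± 0.12 for Mmp9 (limma adjusted p = 0.929). After normalization the S100a9 level and this sum were both higher in parous+MNU than in AMV+MNU, and in the untreated pair their directions differed. As deposited, Cxcr2 (334 against 362 units) and Mmp9 (312 against 367 units) were both lower in parous+MNU than in AMV+MNU. S100a9 was higher there as deposited (341 against 256 units).

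Of 14 macrophage and monocyte markers 12 were on the array and 7 passed the filter, while Cd68, Adgre1, Csf1r, Itgam and Ctss lay under it. Their summed level was 6277 units in parous+MNU, 6472 in AMV+MNU, 6723 in parous and 7931 in AMV glands, a sum carried mostly by Clec10a. Without Clec10a it was 2766 units in parous+MNU, 2746 in AMV+MNU, 3356 in parous and 3261 in AMV glands, so the direction of the sum between parous and virgin glands rested on that gene. The median log2 difference of the 7 markers was 0.08 without MNU, with 4 above 0, and -0.08 after MNU, with 2 above 0. Clec10a, a macrophage lectin, had a mean parity difference of -0.28 ± 0.12 (limma adjusted p = 0.467) and Mrc1, the mannose receptor gene, of -0.28 ± 0.11 (limma adjusted p = 0.390). Tyrobp, a signalling adaptor of myeloid cells, was named after its values were seen and stood at 0.27 ± 0.11 (limma adjusted p = 0.403).

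The 7 luminal markers summed to 13849 units in parous+MNU, 11977 in AMV+MNU, 16536 in parous and 14929 in AMV glands. After normalization this sum, like the members, was higher in the parous glands of both pairs. Without Epcam, the brightest gene, the other markers summed to 7089 units in parous+MNU, 6838 in AMV+MNU, 9851 in parous and 8218 in AMV glands. Their own directions differed: Muc1, an apical mucin gene, rose by 0.59 ± 0.11 (limma adjusted p = 0.0199), Krt7, a keratin gene, fell by 0.56 (limma adjusted p = 0.0281), and Cldn7, a claudin gene, stood at 0.62 without MNU and -0.54 after MNU. Adipoq and Cfd, defining markers of fat cells, were blank on all arrays. The 5 adipocyte markers with complete values summed to 7794 units in parous+MNU, 12978 in AMV+MNU, 5857 in parous and 6996 in AMV glands, lower in the parous glands of both pairs. Among them Slc2a4, the insulin-responsive glucose transporter gene, fell with parity by 0.57 (limma adjusted p = 0.0484). Gpd1, which supplies glycerol phosphate for fat, rose with MNU and age by 0.92 ± 0.15 (limma adjusted p = 0.0261). This mean joined 0.58 in parous and 1.26 in virgin glands. As deposited Gpd1 read 3660 units in parous+MNU against 3500 in parous, and 8300 in AMV+MNU against 3880 in AMV glands. A second Gpd1 feature lay under the filter. Without a filter 0 genes passed in limma for parity and 0 for MNU, so Muc1, Krt7, Slc2a4 and Gpd1 did not pass there. The part of cell type shares in the difference of the members was not tested.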

How the data were processed

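Expression in rat mammary gland was measured on 4 arrays, 1 per group, with groups taken from the sample titles. The intensity values deposited by the authors are positive, linear and given to 3 significant digits, with blanks. For background correction, scaling and the meaning of a blank, the labels give nothing. The members and gene lists were chosen with earlier results of these data known. Of 20500 features, 12750 carried 1 gene symbol, 5 several and 7745 none. By gene identifier, 12720 were matched to current names of GRCr8.

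Array medians differed by up to 1.33 times, above the limit of 1.1 set for scaling. The arrays were quantile normalized on the log2 scale, with the curve set by features without a blank and interpolated for others. Values were floored at the pooled 40th percentile (176.9 units), and a feature was kept if 1 array exceeded the pooled 50th percentile (214.9 units). Each gene took its brightest kept feature. Blanks were never filled in. Single comparisons gave log2 differences with no test. Parity and MNU were then fitted together with limma 3.58.1 in R 4.3.3 (lmFit and eBayes, Benjamini-Hochberg over 5587 genes, threshold 0.05), with 1 residual and 11.3 prior degrees of freedom. With 1 array per group, that residual is how far the parity difference depended on MNU, and the prior pools it over genes. The p-values therefore measure no scatter between replicate arrays or animals, and the differences may be technical in part. The model was also run on simulated data with independent noise and a parity effect only. That run had no MNU effect and no spread between animals, so it cannot show how the model performs with those. Alternatives covered scaling, floor, filter, features per gene, background, fold threshold and the variance model. Named genes were all members, genes of each list at least 2-fold different or past limma's threshold, and otherwise the 2 with the largest mean parity difference. Figures were drawn with matplotlib 3.10.9.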

Additional observations from a re-analysis of the deposited data

Results flagged for a closer look

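For 3 members the difference between MNU and untreated glands had opposite signs in parous and virgin rats, which was not tested because each group has 1 array. S100a9 stood at 0.18 in parous and at -0.44 in virgin glands on the log2 scale, but as deposited at -0.21 and -0.55, both below 0. Cd14 stood at -0.31 in parous and at 0.12 in virgin glands. C3 stood at -0.09 in parous and at 0.12 in virgin glands, both within the robust SD of all genes, 0.194 and 0.190. For Cd14 and C3 the signs were opposite in every scaling tried, with Cd14 at -0.84 and 0.03 and C3 at -0.44 and 0.03 as deposited.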

How the results depend on the processing

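All 5 members past the filter with values on all arrays had a positive mean parity difference under each alternative in which they were fitted. Without a filter S100a8 was fitted as well, with all its values at the floor. Their median after MNU was -0.06 as deposited, in place of 0.40, where all genes shifted by -0.36, so relative to all genes it was 0.31 in place of 0.41. In parous glands the median for MNU and age was -0.68 as deposited, in place of -0.18, with all genes at -0.40. At a 1.5-fold threshold 2 members differed for parity without MNU, 1 after MNU and 1 for MNU in virgin glands, and with background subtracted 1 member, S100a9, was 2-fold different after MNU. In limma 0 members passed for parity, against 2 under the strict filter (Cd14 and S100a9, where 128 of 4850 genes passed). After background subtraction 1 member passed (C3, where 67 of 5587 genes passed). C3 passed the main filter only through the parous arrays. Leaving out C3, an alternative chosen after seeing the data, gave a members' median of 0.33 in each parity comparison. The mean MNU difference reversed for C3 as deposited, at -0.20, and for Cd14 with quantile normalization over all values, at 0.08; neither passed. Of the 69 genes called for parity in limma, the count became 0 without a filter (735 genes at an unadjusted p under 0.05), 10 with the mean of features and 128 with the strict filter. The 24 genes called for MNU became 70 as deposited, 74 with median scaling, 71 with quantile normalization over all values, 8 with no floor, 0 without a filter (831 genes at an unadjusted p under 0.05), 106 with the strict filter, 5 with the mean of features, 12 with background subtracted and 6 with robust eBayes. Genes at least 2-fold different for parity without MNU numbered 27, against 99 at 1.5-fold and 43 with background subtracted. After MNU they numbered 24, against 130 at 1.5-fold, 67 as deposited (5 higher and 62 lower), 45 with background subtracted and 48 with the mean of features. For MNU in parous glands they numbered 5, against 57 at 1.5-fold, 44 as deposited, 13 with background subtracted, 32 with the mean of features, 8 with no floor and 3 with the strict filter. For MNU in virgin glands they numbered 23, against 133 at 1.5-fold, 57 with background subtracted and 43 with the mean of features. The cause of these shifts was not tested. No paired analysis was possible because each group has 1 array and the labels give no replicate numbers.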

Other observations

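The genes below are named after their values were seen, and they do not stand for their lists. S100a6, a calcium-binding protein gene, read 11041 units in parous and 7902 units in AMV glands and was blank on both MNU arrays. S100a4 read 3145 units in parous+MNU, 3818 in parous and 4268 in AMV glands and was blank in AMV+MNU. C6, a component of the membrane attack complex, read 1301 units in parous+MNU, 1826 in AMV+MNU, 1347 in parous and 1558 in AMV glands, a mean parity difference of -0.35 ± 0.12 (limma adjusted p = 0.249). Cd55, which protects cells by dissolving C3 convertases, read 556 units in parous+MNU, 722 in AMV+MNU, 566 in parous and 804 in AMV glands, a mean of -0.44 ± 0.11 (limma adjusted p = 0.0970). Both parous arrays lay below both virgin arrays for C6 and for Cd55. C4a, a form of complement component C4, was higher in the parous gland of each pair, by 0.16 without MNU and 0.23 after MNU, a mean of 0.20 ± 0.11 (limma adjusted p = 0.616). Cebpd, the acute phase transcription factor C/EBP delta, read 4665 units in parous+MNU, 4549 in AMV+MNU, 6372 in parous and 6585 in AMV glands, lower after MNU in both pairs, with a mean MNU difference of -0.49 ± 0.11 (limma adjusted p = 0.0826).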
